A study of Mus musculus with 2 samples.

Results

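The genes described here code for proteins that make ribosomes. The list of 39 symbols was chosen by function and with earlier values of the same libraries in view (the genes' levels, zonation and ratio between the genotypes), so all of these are given as a description. Of the 39 genes, 36 were among the 19465 genes listed in the count files, and Nolc1, Mybbp1a and Ddx21 were not analysed here. Of the 36, 25 had a mean over both libraries of at least 10 CPM (the UMIs of a gene scaled to a common library total), as did 6933 of all genes, and 11 were below that level.

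Ribosomes are assembled in the nucleolus. RNA polymerase I transcribes a long precursor RNA, small nucleolar ribonucleoproteins (snoRNPs) guide the chemical modification and cutting of that RNA, and large sets of assembly factors fold it with ribosomal proteins into a small and a large subunit. The transcription factor MYC is a known activator of many of these genes, and in the liver ribosome production follows growth, feeding and the daily cycle.

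Spatial transcriptomics (ST) had been carried out by Visium on formalin-fixed, paraffin-embedded liver sections. There was 1 section of a mouse lacking AEG-1 in myeloid cells (AEG-1ΔMAC) and 1 of a mouse of the floxed control line (AEG-1fl/fl). Both mice carried the floxed allele of Mtdh, the gene of AEG-1, and in AEG-1ΔMAC mice Cre made from the Lyz2 locus deletes it in macrophages, neutrophils and other myeloid cells, while hepatocytes keep it. The labels give an age of 27 weeks and a high fat/high sugar diet started at 7 weeks of age for both mice, but in the study's account the ST sections came from animals on control diet, so their diet is not settled, and their sex is not given. Each spot of a section sums RNA over several cells, mostly hepatocytes, and there was 1 library a genotype, so the spread between mice is unknown.

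Of 2149 deposited spots of AEG-1ΔMAC and 2543 of the floxed control, 9 and 3 were left out by limits on UMIs and genes, leaving 45453286 UMIs in 2140 spots and 50322850 UMIs in 2540 spots. The deposited libraries shared 1782 barcodes, which name positions on the array and not cells. Hepatocyte RNA dominated both sections, albumin alone taking 8.80% and 14.2% of all UMIs, and 20 marker genes of other tissues summed to only 9.39 and 10.99 CPM, most of it from Krt10 (6.12 and 6.72 CPM). Mtdh, the targeted gene, had 66.3 CPM in AEG-1ΔMAC against 60.2 CPM in AEG-1fl/fl, which does not check a deletion limited to myeloid cells, and Lyz2 had 25 and 41 UMIs. The log2 ratio of AEG-1ΔMAC to AEG-1fl/fl CPM had a median of 0.15 over all genes, and all ratios below are given relative to that median, as the log2 ratio minus 0.15. A value of 0 on this scale marks a gene at the median of all genes, and the scaling between the libraries drops out of it. Brackets give 95% intervals for counting error only, Poisson for a level and exact binomial for a ratio.

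The 36 genes were present at low to moderate levels in both livers and differed little between the genotypes. Their summed UMIs were 39678 (AEG-1ΔMAC) and 38799 (AEG-1fl/fl), which is 873 CPM (864 to 882) and 771 CPM (763 to 779), and the relative log2 ratio of the sums was 0.03 (0.01 to 0.05). The median relative log2 ratio of the 36 genes was 0.08, and that of the 25 genes with at least 10 CPM was 0.05, against 5th and 95th percentiles of -0.43 and 0.40 over all genes. There were 26 genes above the median of all genes and 10 below it. A gene was counted as higher or lower when it was at least 1.5-fold from the median and its interval lay on the same side. None of the 36 genes was higher by this measure (2.38% of all genes with at least 10 CPM were) and none was lower (2.77% of all genes). With the limit set at 25% above the median, 6 genes were higher, 3 of them among the 25 (7.27% of all genes), and with the matching limit of 20% below it none was lower (7.99% of all genes). The other 3 of the 6 were among the 10 genes of the module with a mean of 1 to 10 CPM, where 9.42% of all genes passed the limit above and 20.3% the limit below (4.59% and 10.7% at 1.5-fold, with none of the 10).

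**Figure D1:**
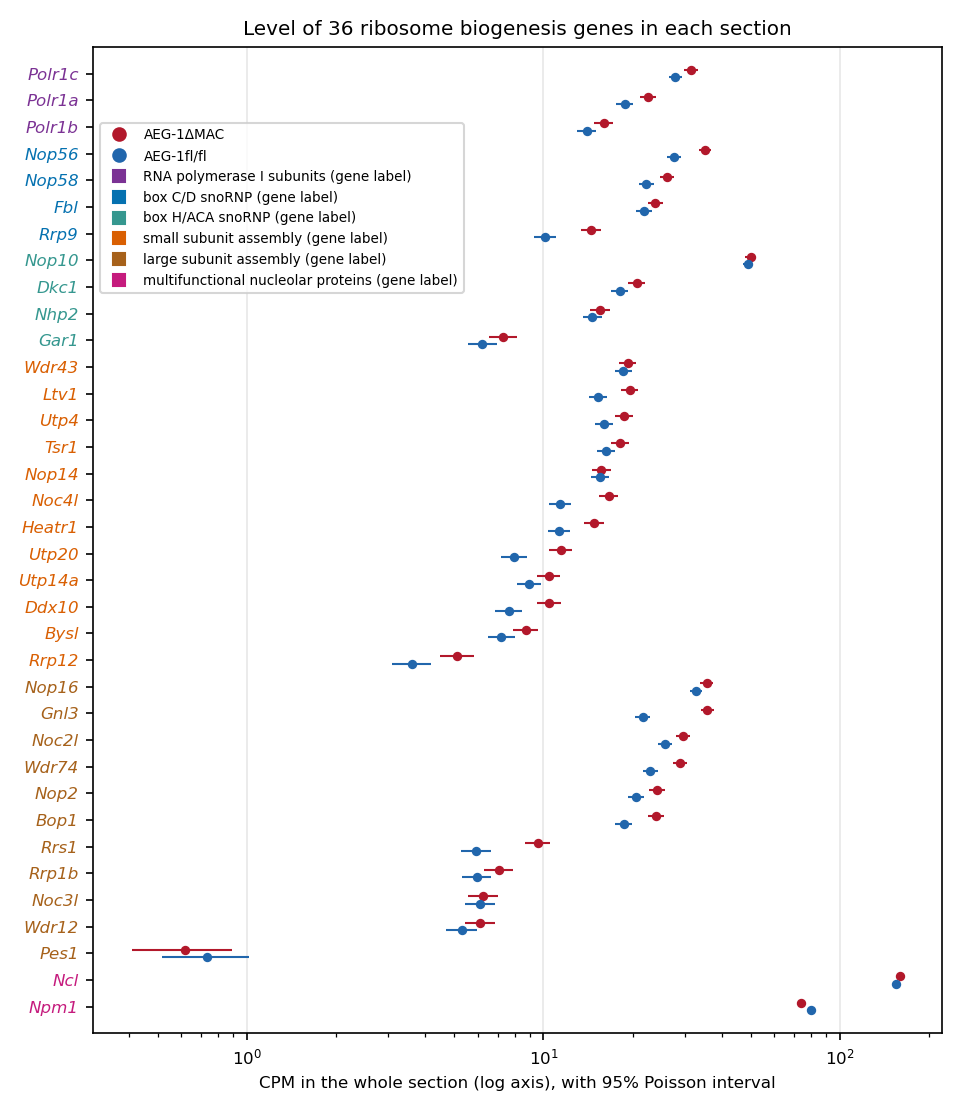
Level of each of the 36 genes in the 2 sections, in CPM on a log axis, red for AEG-1ΔMAC and blue for AEG-1fl/fl, with bars for the 95% Poisson interval and the gene names coloured by role. Most genes lie between 5 and 50 CPM, with Ncl and Npm1 above that range, Pes1 below it in both sections and Rrp12 below it in AEG-1fl/fl, and Npm1 and Pes1 are the 2 genes with the lower value in AEG-1ΔMAC.

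The 3 subunits of RNA polymerase I were near the median of all genes. Polr1a, the largest subunit, had 22.6 CPM in AEG-1ΔMAC against 18.8 CPM in AEG-1fl/fl, a relative log2 ratio of 0.12 (-0.01 to 0.25). Polr1b, which completes the catalytic core, had 16.0 and 14.01 CPM and a ratio of 0.05. Polr1c, a subunit shared with RNA polymerase III, had 31.4 and 27.8 CPM and a ratio of 0.03. For all 3 the interval of the ratio included the median.

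Of the 4 box C/D snoRNP proteins, which direct the 2'-O-methylation of ribosomal RNA, Nop56 and Rrp9 had intervals above the median of all genes. Nop56, a core scaffold protein, had 35.1 CPM in AEG-1ΔMAC against 27.5 CPM in AEG-1fl/fl, a relative log2 ratio of 0.20 (0.10 to 0.31). Its paralog and partner Nop58 had 26.1 and 22.2 CPM and a ratio of 0.09 (-0.03 to 0.20). Fbl, the methyltransferase fibrillarin, had 23.8 and 21.9 CPM and a ratio of -0.02. The farthest from the median was Rrp9, a protein of the U3 snoRNP used in small subunit processing, with 14.4 CPM from 656 UMIs and 10.1 CPM from 509 UMIs. Its ratio was 0.37 (0.20 to 0.54), at least 25% above the median of all genes, while the interval of Fbl included it.

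The box H/ACA snoRNP proteins, which direct pseudouridylation, lay near the median, and of the 4 only Nop10 had an interval that left it out. Nop10, the smallest of them, had 49.9 CPM in AEG-1ΔMAC against 48.8 CPM in AEG-1fl/fl, a relative log2 ratio of -0.11 (-0.20 to -0.03). Dkc1, the pseudouridine synthase dyskerin, had 20.6 and 18.1 CPM and a ratio of 0.04. Nhp2 and Gar1, the other core proteins, had ratios of -0.06 and 0.09, with intervals that included the median. Nop10 was thus almost equal between the sections as CPM, while the median gene was 0.15 higher in AEG-1ΔMAC.

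Assembly factors of the small subunit held several of the genes farthest above the median. Noc4l, a partner of Nop14, had 16.6 CPM (15.4 to 17.8) in AEG-1ΔMAC against 11.4 CPM (10.5 to 12.3) in AEG-1fl/fl, from 755 and 572 UMIs, with a relative log2 ratio of 0.40 (0.24 to 0.56), higher than 95.1% of all genes with at least 10 CPM. Nop14 itself, with which Noc4l forms a complex, had 15.7 and 15.6 CPM and a ratio of -0.14 (-0.28 to 0.01). The interval of Nop14 included the median, while that of Noc4l lay above it. Utp20, a scaffold protein of the early particle, had 11.4 and 7.97 CPM and a ratio of 0.37 (0.18 to 0.57). Rrp12, an export factor, had 5.13 and 3.597 CPM from 233 and 181 UMIs, and its ratio of 0.37 (0.08 to 0.65) had the widest interval after that of Pes1. Noc4l, Utp20 and Rrp12 were the small subunit factors at least 25% above the median.

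Of the other 8 small subunit factors, Ddx10 (a helicase) at 0.31 (0.11 to 0.51), Heatr1 (needed for transcription and processing of the precursor) at 0.24 (0.08 to 0.41) and Ltv1 (a late factor of the particle's maturation) at 0.21 (0.07 to 0.35) also had intervals above the median. Ltv1, with the most UMIs of these, had 890 and 770. Bysl (bystin), Tsr1, Utp4, Utp14a and Wdr43, which act in early or late steps of the same particle, had ratios of 0.13, 0.01, 0.08, 0.08 and -0.10, each with an interval that included the median.

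Among the large subunit factors, Gnl3 stood farthest from the median of all 36 genes. Gnl3 codes for nucleostemin, a nucleolar GTP-binding protein that is abundant in dividing and stem cells (chromosome 14, 31012433 to 31019152, minus strand; GRCm38). It had 1622 UMIs in AEG-1ΔMAC against 1088 UMIs in AEG-1fl/fl, which is 35.7 CPM (34.0 to 37.5) and 21.6 CPM (20.4 to 22.9), and these intervals did not overlap. Its relative log2 ratio was 0.58 (0.47 to 0.69), just under 1.5-fold and above 97.6% of all genes with at least 10 CPM. Next was Rrs1, a factor that brings 5S RNA into the particle (chromosome 1, 9545408 to 9547455, plus strand), with 9.55 CPM (8.67 to 10.5) and 5.94 CPM (5.29 to 6.66) from 434 and 299 UMIs and a ratio of 0.54 (0.32 to 0.76). Of the 6 genes at least 25% above the median, Gnl3 and Rrs1 are large subunit factors, Noc4l, Utp20 and Rrp12 small subunit factors, and Rrp9 a snoRNP protein.

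Bop1, Pes1 and Wdr12 form one complex, which is required for processing of the large subunit RNA, and their data were of unequal depth. Bop1 had 23.9 CPM in AEG-1ΔMAC against 18.6 CPM in AEG-1fl/fl, a relative log2 ratio of 0.22 (0.09 to 0.34). Wdr12 had 6.12 and 5.31 CPM and a ratio of 0.06 (-0.19 to 0.31). For Pes1 only 28 and 37 UMIs were counted (0.62 and 0.73 CPM), and its ratio of -0.40 had an interval from -1.16 to 0.35. No difference in Pes1 was detectable at this depth. Wdr74, a factor of nuclear maturation, had 28.9 and 22.9 CPM and a ratio of 0.19 (0.08 to 0.31). The other large subunit factors, Rrp1b, Nop2 (an RNA methyltransferase), Noc2l, Nop16 and Noc3l, were at 0.10, 0.09, 0.05, -0.03 and -0.11, each with an interval that included the median.

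Ncl and Npm1, which had the most UMIs of the 36 genes, were below the median of all genes. Ncl codes for nucleolin, which binds the precursor RNA and chromatin, and had 160 CPM (156 to 164) from 7267 UMIs in AEG-1ΔMAC against 155 CPM (151 to 158) from 7794 UMIs in AEG-1fl/fl, a relative log2 ratio of -0.10 (-0.15 to -0.05). Npm1 codes for nucleophosmin, a chaperone of nucleolar assembly and histones (chromosome 11, 33152287 to 33163206, minus strand), and had 74.0 CPM (71.5 to 76.6) and 80.1 CPM (77.6 to 82.6). Its ratio of -0.26 (-0.33 to -0.19) was the lowest of the 25 genes and lay above 11.2% of all genes. These 2 genes carried a large part of the module's UMIs, and without Ncl the relative log2 ratio of the sum was 0.065 in place of 0.03. In all, 12 of the 36 genes had an interval wholly above the median, 8 of them among the 25 (28.1% of all genes) and 4 among the 10 of 1 to 10 CPM (12.1% of all such genes, with 24.3% below), and Npm1, Ncl and Nop10 had one wholly below it (28.2% of all genes). The interval stayed within 1.5-fold of the median for 24 of the 25 genes (92.3% of all genes), Gnl3 being the exception, and within the limits of 25% above and 20% below for 18 (70.8% of all genes).

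**Figure D2:**
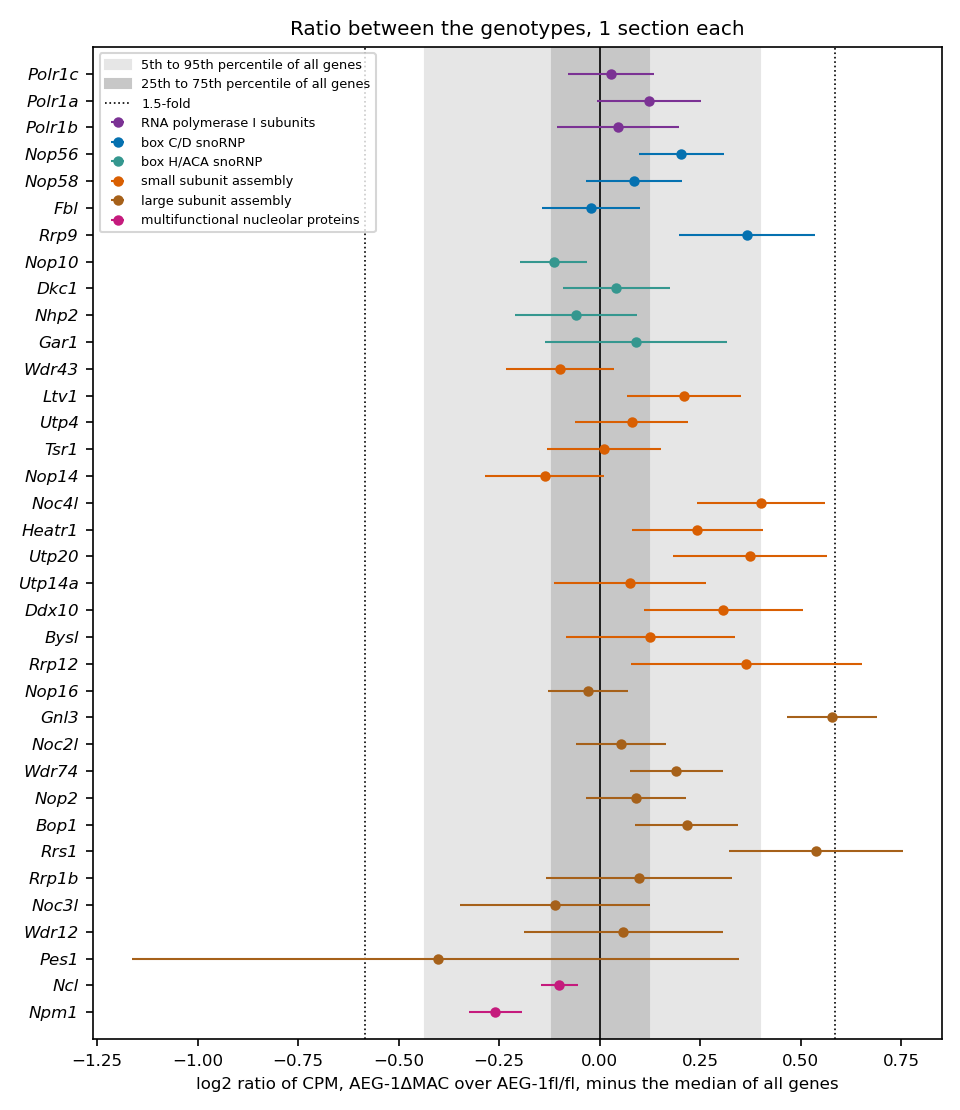
Relative log2 ratio of each gene, AEG-1ΔMAC over AEG-1fl/fl minus the median of all genes, with bars for the 95% interval of counting error and colours for roles. The dark and light bands are the middle 50% and 90% of all genes, and no gene lies past the dotted 1.5-fold lines, with Gnl3 at 0.58 and Rrs1 at 0.54 nearest to them and Npm1 at -0.26 lowest among genes with depth.

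The ratio was then taken in each part of the lobule. Spots were ranked within each library by zone 3 (pericentral) markers minus zone 1 (periportal) markers and divided into 3 equal parts, and the ratio of each part was set against the median of all genes in that part. The median of the 36 genes was 0.05 in the zone 1 part, 0.08 in the middle part and 0.10 in the zone 3 part. Gnl3 was at 0.57, 0.62 and 0.54 in these parts, and Noc4l at 0.50, 0.35 and 0.34, so that both were above the median in every part. Npm1 was at -0.17, -0.25 and -0.36, below it in every part. Rrs1 was at least 1.5-fold higher in the zone 1 part, alone among the 36 genes (5.61% of genes of 1 to 10 CPM, the class of Rrs1, and 2.51% of those with at least 10 CPM), and together with Gnl3 in the middle part (4.52% and 2.7%). No gene passed in the zone 3 part (2.54% of all genes), and none was 1.5-fold lower in any part (2.55%, 3.04% and 3.89% of all genes). In total 21 of the 36 genes kept the same side of the median in every part, as did 64.0% of all genes.

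Zonation inside each section was measured as the zone ratio, the log2 ratio of CPM in the zone 3 part over the zone 1 part of the same library. The genes were nearly even across the lobule in both livers. Their median zone ratio was 0.02 in AEG-1ΔMAC but 0.07 in AEG-1fl/fl, where all genes had 0.09 and 0.07. None of the 36 genes was 1.5-fold higher in the zone 3 part, in AEG-1ΔMAC (2.97% of all genes) or AEG-1fl/fl (2.84% of all genes), and none was 1.5-fold lower (2.03% and 1.75%). With the limits of 25% above and 20% below, none was higher in either section (11.6% and 9.74%), none was lower in AEG-1ΔMAC (5.29%), and Utp20 alone was lower in AEG-1fl/fl (4.18%, or 9.19% of genes of 1 to 10 CPM). All 25 genes with at least 10 CPM had an interval within 1.5-fold of evenness in both sections, as did 87.5% (AEG-1ΔMAC) and 89.1% (AEG-1fl/fl) of all genes.

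A few genes leaned to one side of the lobule in one section. Utp20 in AEG-1fl/fl went from 9.12 CPM in the zone 1 part through 7.86 to 6.92 CPM in the zone 3 part, a zone ratio of -0.40 (-0.76 to -0.04), and in AEG-1ΔMAC its ratio was -0.17 (-0.49 to 0.14). Npm1 in AEG-1fl/fl went from 71.9 through 81.6 to 86.7 CPM, a zone ratio of 0.27 (0.16 to 0.38). In AEG-1ΔMAC it had 70.2, 76.7 and 75.1 CPM and a ratio of 0.10 (-0.02 to 0.22). As CPM, the sections thus had nearly the same level of Npm1 in the zone 1 part and were farther apart in the zone 3 part. Relative to the median of all genes in the part, Npm1 was at -0.17 (-0.29 to -0.05) and -0.36 (-0.47 to -0.24). Fbl, Nop10, Bop1 and Ncl also had zone intervals above 0 in AEG-1fl/fl, so that with Npm1 there were 5 (28.4% of all genes), and Nhp2 and Wdr74 had them in AEG-1ΔMAC (31.4% of all genes). None of the 36 genes had such an interval in both sections, and the share of all genes that did was not counted. An interval below 0 was found for none in AEG-1ΔMAC (10.4% of all genes) and for Utp20 in AEG-1fl/fl (9.23%). For the 25 genes of at least 10 CPM, zone ratios in one section and in the other had a Pearson correlation of -0.02, against 0.79 across all genes at that level. Over all 36 genes it was 0.35, and 0.11 over 35 without Pes1. All 25 genes lay within 1.5-fold of evenness, while all genes include strongly zoned ones, so these correlations cover unlike ranges. They are descriptions over genes that share the same spots, and most zone ratios of the module were within counting error.

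**Figure D3:**
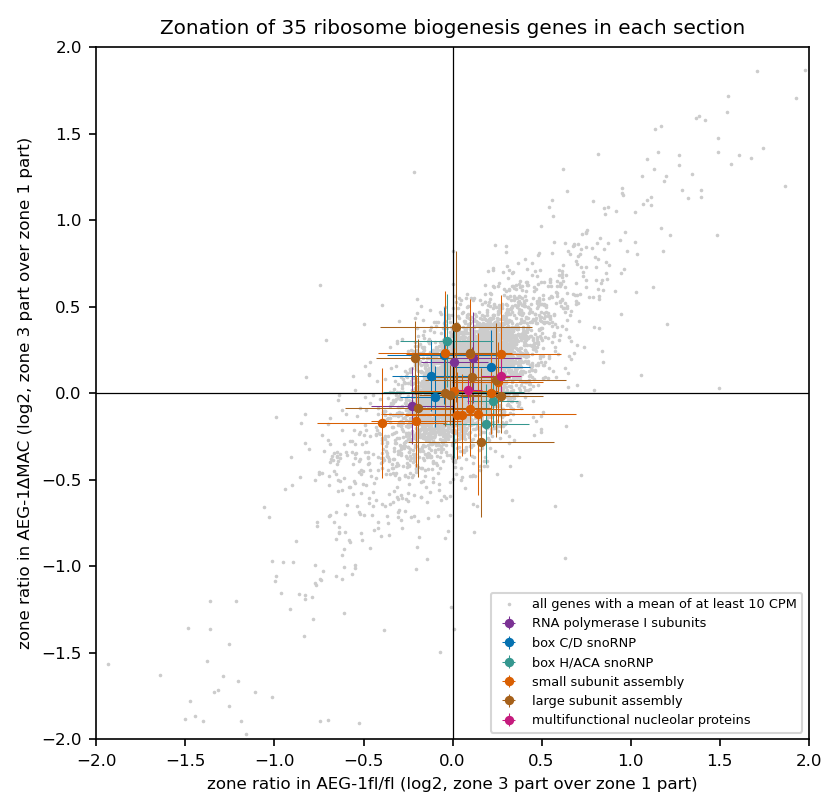
Zone ratio in AEG-1fl/fl on the x axis against AEG-1ΔMAC on the y axis, both log2 of CPM in the zone 3 part over the zone 1 part, with 95% bars for the genes of the module and grey points for all genes with at least 10 CPM. Pes1 is left out for its 28 and 37 UMIs, and grey points beyond the axes are not drawn. The coloured points gather near 0 on both axes, while all genes spread along the diagonal, and Utp20 at -0.40 and Npm1 at 0.27 on the x axis are named in the text.

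In finer steps, each library was cut into 10 equal groups of spots along the same index. The summed level of the 36 genes lay between 832 and 933 CPM in AEG-1ΔMAC and between 743 and 846 CPM in AEG-1fl/fl. It was highest in the group at the zone 3 end in both, with 933 CPM (905 to 962) and 846 CPM (818 to 874). All genes did the same: the median gene was 0.12 above its own section mean on the log2 scale in that group in both sections, and the median of the module was 0.10 and 0.05 above. The index itself was distributed differently in the sections. The zone 3 markers were 1.14 higher in AEG-1ΔMAC as a relative log2 ratio of sums, while the zone 1 markers were at 0.09, and the median zone 3 marker was higher in each of the 3 parts, by 1.02, 1.01 and 0.81. With index limits shared by both libraries the zone 3 part held 43.7% of the spots of AEG-1ΔMAC but 24.6% of those of AEG-1fl/fl. More zone 3 tissue in the section cannot be told apart here from a higher level of these markers. When the 3 parts were cut at these shared limits and weighted equally, the median ratio of the 36 genes was 0.10, close to the 0.08 of the whole sections.

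**Figure D4:**
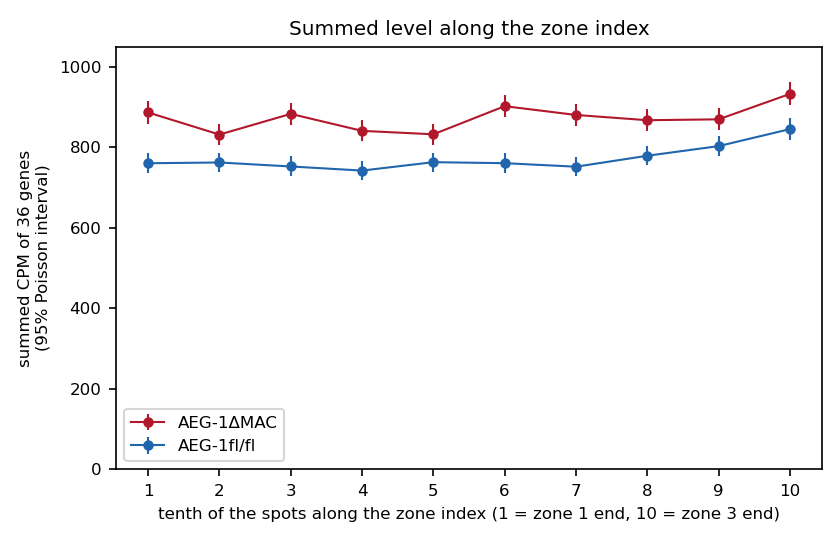
Summed CPM of the 36 genes in 10 equal groups of spots from the zone 1 end to the zone 3 end of the index, in red for AEG-1ΔMAC and blue for AEG-1fl/fl, with 95% Poisson bars. Both lines are nearly level, and the last group is the highest in both, at 933 and 846 CPM.

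The summed level of the module varied little from spot to spot beyond counting. A spot held a median of 18 module UMIs in AEG-1ΔMAC but 14 in AEG-1fl/fl, and among spots with at least 1000 UMIs the 5th, 50th and 95th percentiles of the summed level were 521, 861 and 1255 CPM and 432, 758 and 1148 CPM. The variance of the sum over spots was 1.13 and 1.12 times what counting alone gives. What remained after counting error was a coefficient of variation of 8.23% and 8.79%, compared with 23.2% and 25.6% from counting. For single genes the variance was between 0.95 and 1.06 times the counting variance, and the median over all genes with at least 10 CPM was 1.02 in both sections. With a mean below 1 UMI a spot for 33 and 34 of the 36 genes, this measure cannot show how even a single gene was, and the spread left after counting reached 38.3% and 30.6% among the 25 genes. Spots rich in cholangiocyte markers (the top 5% of spots) had a higher summed level than the other spots, 970 against 868 CPM in AEG-1ΔMAC and 856 against 766 CPM in AEG-1fl/fl, which is 0.16 (0.10 to 0.22) on the log2 scale in each section. The median gene of all genes was also higher in those spots, by 0.10 and 0.08. Spots rich in smooth muscle and vessel wall markers had 970 against 868 CPM in AEG-1ΔMAC, a log2 ratio of 0.16 (0.10 to 0.22). In AEG-1fl/fl such spots had 811 against 769 CPM, a ratio of 0.08 (0.01 to 0.14). There the median gene of all genes was higher by 0.08 and 0.06. Spots rich in markers of Kupffer cells, the resident macrophages of the liver, had 825 against 875 CPM in AEG-1ΔMAC, a log2 ratio of -0.08 (-0.15 to -0.02). In AEG-1fl/fl such spots had 750 against 772 CPM, a ratio of -0.04 (-0.12 to 0.03). The median gene of all genes was at -0.03 and -0.02 in these Kupffer-rich spots. Whole sections also differed in the markers of these cells, with relative log2 ratios of sums of -0.16 for cholangiocytes, -0.30 for Kupffer cells, -0.15 for stellate cells, -0.18 for endothelial cells, 0.01 for smooth muscle and vessel wall and -0.74 for hepatocytes. B cell markers were at -0.86, T cell markers at 0.83 (14.1 and 7.15 CPM) and neutrophil markers at -1.85 (5.81 and 18.9 CPM), and the last 2 lists held no gene of 10 CPM and in one section summed to less than the genes of other tissues. Such sums weight the most abundant markers. Of the 6 hepatocyte markers 3 were above the median and 3 below, with a median of -0.13, from Alb at -0.84 to Hnf4a at 0.32. Of the 5 Kupffer cell markers 1 was above and 4 below, with a median of -0.22, from Fabp5 at -1.98 to Cd5l at 0.06. Fewer cells of a type cannot be told apart from less RNA per cell, or from a change in a few of the markers. Without the spots richest in cholangiocyte, vessel wall, Kupffer or stellate markers the median ratio of the 36 genes was 0.09.

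Myc itself was far apart between the sections, and its part in the ratios of the module was not tested. Myc had 1719 UMIs in AEG-1ΔMAC against 226 UMIs in AEG-1fl/fl, or 37.8 and 4.49 CPM, a relative log2 ratio of 2.93 (2.73 to 3.13). The other 6 genes of the MYC network with at least 10 CPM lay between -0.27 for Mnt, a repressor that competes for the same sites, and 0.14 for Mlxip. MYC and its relatives bind the E-box, and the word CACGTG, which reads the same on both strands, was searched in RefSeq promoter sequences of GRCm38.p6 (250 bases before and 50 after a gene's start), which were found for 31 of the 36 genes. Rrs1, Fbl, Npm1, Bop1 and Rrp12 were not among them. The word was present for 7 of the 31 genes, against 12.5% of the genes with at least 10 CPM. By promoter it was in 7 of their 35, against 7.15% of all promoters. The 31 genes include some below 10 CPM, among them Pes1 and Utp20, and some genes have several promoters. The shares given for this and the next words are thus not of like sets. The stretches around it are shown because CACGTG is the word MYC binds, in the direction of the gene from 5′ to 3′ and with the E-box in capitals.
Ltv1 (chr10:13193092-13193121, minus strand): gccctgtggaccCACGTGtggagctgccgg
Nop2 (chr6:125131811-125131840, plus strand): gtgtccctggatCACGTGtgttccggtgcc
Pes1 (chr11:3963965-3963994, plus strand): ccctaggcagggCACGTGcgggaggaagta
Tsr1 (chr11:74898092-74898121, plus strand): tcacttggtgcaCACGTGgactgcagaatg
Utp20 (chr10:88826765-88826789, minus strand): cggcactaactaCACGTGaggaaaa
Utp4 (chr8:106893643-106893672, plus strand): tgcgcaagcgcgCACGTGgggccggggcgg
Wdr43 (chr17:71616220-71616249, plus strand): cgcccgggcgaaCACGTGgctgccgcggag

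In 6 of these 7 promoters the E-box lay just inside the transcribed sequence, its first base between 3 and 38 bases from the start counted as 1, and in Nop2 it lay 60 bases before the start. The relative log2 ratios of the 7 genes spanned the module, from Pes1 at -0.40 (28 and 37 UMIs) and Wdr43 at -0.10 through Tsr1 at 0.01, Utp4 at 0.08, Nop2 at 0.09 and Ltv1 at 0.21 to Utp20 at 0.37. Gnl3, the gene farthest above the median, had no CACGTG in the window, which says only that these letters are not there. The word CCGGAAG, bound by ETS factors, was found on either strand for 12 of the 31 genes, among them Heatr1, Ltv1, Wdr74 and Polr1c (21.6% of genes with at least 10 CPM, 8.86% of all promoters). CCAAT was found for 11 (42.9% and 37.4%) and TATAAA for 2, Dkc1 and Pes1 (9.07% and 13.6%). None of these 4 words contains another, and a match is a description of the letters and not evidence of binding.

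The genes were also placed on the genome in the GENCODE M21 annotation. Its outermost start of a gene can differ from the RefSeq start used above. Of the 36 genes, 12 had the start of a protein-coding gene of the opposite strand within 1000 bases of their own, against 17.0% of all genes with at least 10 CPM. Gnl3 shares its start region with Pbrm1, a chromatin remodelling subunit whose start lies 14 bases inside it, and Pbrm1 had 21.0 and 17.7 CPM and a relative log2 ratio of 0.10 (-0.03 to 0.23), against 0.58 for Gnl3. Noc4l lies back to back with Ddx51, itself a large subunit factor, at 34 bases, and Ddx51 had 171 and 148 UMIs and a ratio of 0.21 (-0.12 to 0.54) against 0.40. By their GENCODE starts Rrp9 and Parp3 overlap by 986 bases. The RefSeq start used for the promoter of Rrp9 lies past the start of Parp3, and by it they do not overlap. Parp3 was at -0.19 (-0.32 to -0.06) against 0.37 for Rrp9. For Gnl3 and Rrp9 the interval of the neighbour did not overlap that of the gene. Genes of small nucleolar RNAs lay within 7 of the 36 genes, against 1.77% of all genes: 5 in Nop56, 4 in Nop58, 3 each in Ncl, Wdr43 and Gnl3, 2 in Tsr1 and 1 in Dkc1. These hosts ranged from -0.10 in Ncl to 0.58 in Gnl3, and so did not lie together.

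Further genes of the same process, from a list that leaves out the module, were set beside it. Of 143 such genes 138 were listed and 96 had at least 10 CPM. Their median relative log2 ratio was 0.00, with 48 above and 48 below the median of all genes. Of the 96, 1 gene passed the limit of 25% above (7.27% of all genes) and 1 that of 20% below (7.99% of all genes). The higher one was Rrn3, the factor that brings RNA polymerase I to its promoter, with 40.4 and 25.8 CPM from 1837 and 1297 UMIs and a ratio of 0.50 (0.40 to 0.61). The lower one was Lsm6, an RNA-binding protein of several small RNPs, at -0.34 (-0.44 to -0.24). Among the 25 genes of the module at that level, 3 passed the upper limit and 0 the lower. Genes of the list below 10 CPM were not in this count, and some of them passed the limits in either direction. The other RNA polymerase I machinery (9 genes with at least 10 CPM) had a median of -0.10, with Ubtf, which binds the ribosomal DNA promoter, at -0.10, so Rrn3 stood alone in it. Other small subunit factors (38 genes) were at 0.01, other large subunit factors (38 genes) at 0.03 with Senp3 at 0.31 as the highest, and the nuclear exosome (11 genes), which trims the precursor, at -0.03. Genes of the ribosomal proteins themselves were not analysed here.

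Translation initiation factors (27 genes) had a median of 0.00 and the mTOR pathway (13 genes), a main driver of ribosome synthesis in fed cells, one of 0.01. Targets of p53, a pathway that responds to disturbed ribosome assembly, had a median of -0.40 over 9 genes, with Gdf15 at -1.57, Cdkn1a at -0.87 and Mdm2, the p53 ligase, at 0.18. Proliferation genes were lower in AEG-1ΔMAC, with 3 of 3 genes of at least 10 CPM, Ccnd1, Mcm3 and Tk1, at -0.65, -0.56 and -0.54, and the 23 listed genes of the set at -0.87 (-0.92 to -0.82) as a sum. Clock genes stood apart as well. The evening-phase list (5 genes) had a median of 1.22 with Dbp at 2.61 and Cry1 at -0.75, and the morning-phase list (4 genes) had one of -0.49 with Arntl at -0.86. Their part in the ratios of Gnl3, Rrs1 and the other genes of the module was not tested.

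**Figure D5:**
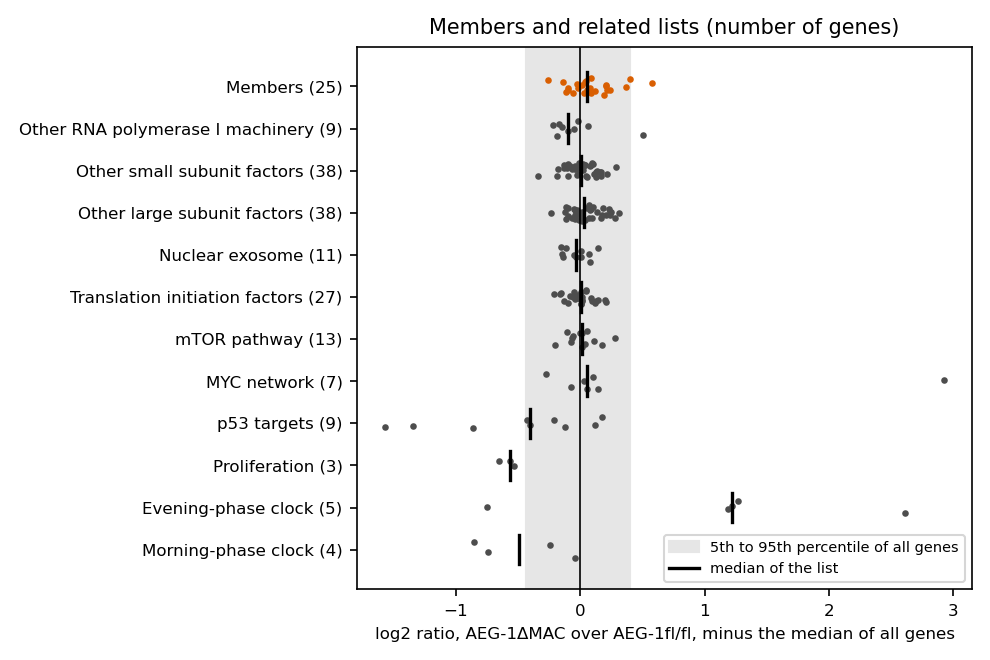
Relative log2 ratio of each gene with at least 10 CPM in the module (orange) and in related lists (grey), with a black bar for the median of each list and a grey band for the middle 90% of all genes. The lists of ribosome biogenesis, exosome, translation and mTOR genes center near 0, while Myc at 2.93 and Dbp at 2.61 lie far to the right and the p53 targets reach -1.57.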

How the data were processed

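Reads were aligned by the authors to mm10 with Space Ranger 2.0.1, and what they deposited is an unnormalised UMI count for each gene in each spot (Seurat 4.3.0 is named in the submitters' notes for later steps). Spots with at most 50000 UMIs and 100 to 7000 genes were kept, the limits stated in the methods, which removed 9 of 2149 and 3 of 2543 deposited spots. The study's spot counts after its filter equal the deposited numbers, so these spots stayed in its data, and all deposited spots were taken as an alternative. UMIs were summed per library or zone part and scaled to CPM with Python 3.11.15, numpy 2.4.6, scipy 1.17.1 and pandas 2.3.3. A level had a Poisson interval and a ratio an exact conditional binomial (Clopper-Pearson) interval, both at 95%. With 1 library a genotype no test was run. The zone index was the mean of scaled log-normalised Cyp2e1, Cyp1a2 and Oat minus that of Pck1, Hal, Gls2, Cyp2f2, Hsd17b13 and Arg1. Groups came from the genotype labels. The members and lists were chosen with earlier results of these data known. All members were named, and of other lists the 3 highest and 3 lowest genes with at least 10 CPM could be, plus Myc, Mtdh and Lyz2. Krt10, Ubtf and the neighbouring genes were chosen after their values were seen. Loci came from GENCODE M21 (GRCm38, the assembly of mm10). TMM factors came from edgeR 4.0.16 in R 4.3.3. Probe-based counts depend on the probes of each gene, so a higher count for one gene than for another need not mean more RNA. The code for ratios and intervals was tested on simulated data. At 10 CPM a gene had 455 and 503 UMIs.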

Additional observations from a re-analysis of the deposited data

How the results depend on the processing

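The alternatives were 40 in all, of which 35 were counted as the same, 5 as moved and 0 as reversed. A median counted as the same when it changed by no more than the median half-width of single genes' intervals. That was 0.14 for the ratio and 0.24 and 0.25 for the zone ratios, wider than the medians of 0.08, 0.02 and 0.07. For these medians, and for a count, a reversal could not be counted. Both zone medians fell below 0 when taken relative to all genes. The median relative log2 ratio of the 36 genes stayed between 0.05 and 0.10 under all settings of reference genes, spots, zone parts and weights, and was 0.08 with all deposited spots. The count of genes 1.5-fold or more above the median, which was 0, became 1 when genes with at least 1 CPM set the median and 1 when genes with at least 50 CPM did, since Gnl3 lay just under the limit, and it was 6 with the limit at 25% above. The summed ratio of 0.03 was 0.065 without Ncl. Taken without reference to all genes, the median ratio was 0.23 with CPM, 0.10 with TMM factors, 0.10 with median-of-ratios size factors and 0.086 with the total taken over all but the top 50 genes, settings that apply 1 factor to every gene. The median zone ratio ranged from -0.07 to 0.10 in AEG-1ΔMAC and from -0.01 to 0.09 in AEG-1fl/fl. No paired analysis was possible because each genotype had 1 library. The intervals cover counting error only. Differences between mice, sections and capture areas cannot be told apart from genotype here, and the diet, feeding state and hour of collection of the mice were not tested.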
